A study of Homo sapiens with 6 samples.

Results

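The genes described here are 37 members of the NRF2 and antioxidant system, chosen by name from the 58733 usable entries of a count table for MDA-MB-231 cells. MDA-MB-231 is an established human line of triple-negative breast cancer whose cells are mesenchymal in character. RNA sequencing of polyadenylated RNA was done after 72 h with 2 µM Azeliragon, a small-molecule inhibitor of the receptor RAGE, or after 72 h with the vehicle DMSO. Each treatment had 3 libraries, lettered a, b and c, all from the same line, with no genetic modification named, in the same medium. Whether the 3 libraries of a treatment were separate cultures is not stated in the labels, so p-values here reflect library-to-library spread, some or all of which may be technical.

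NRF2, the product of NFE2L2, is a transcription factor that cells hold at a low level because KEAP1 passes it to a ubiquitin ligase for destruction. When reactive molecules modify KEAP1, NRF2 accumulates, pairs with a small MAF protein such as MAFG and binds antioxidant response elements near its target genes. Those targets make glutathione, reduce thioredoxin, supply NADPH, store iron and detoxify quinones and carbonyls, and in many tumours the pathway is known for protecting cells from oxidative damage and drugs.

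Library totals were between 41455979 and 43772671 counts with Azeliragon and between 43091452 and 44313584 in DMSO, and every pair of libraries within a treatment differed by more than counting noise. DMSO a stood apart from DMSO b and c: on the first principal component, with 37.6% of the variance, the Azeliragon libraries lay between -23.0 and -19.0, DMSO a at -0.23, and DMSO b and c at 30.1 and 33.7. Values without DMSO a are therefore given beside the called members and those called without it but not in the main test. The line's own markers VIM, CD44, AXL and EGFR summed to between 4241 and 4325 CPM (read counts scaled to the library total) with Azeliragon and between 3981 and 4252 CPM in DMSO, and 2 of the 4, AXL and EGFR, were called higher. The 5 luminal markers summed to 30.0 to 32.3 CPM with Azeliragon and 34.5 to 38.3 CPM in DMSO, with PGR at 0 reads and CDH1 at 1 read. Most of these sums came from GATA3, at 21.1 to 24.6 CPM with Azeliragon and 25.1 to 28.8 CPM in DMSO. EPCAM added 7.37 to 8.67 CPM with Azeliragon and 8.15 to 9.43 CPM in DMSO. The 4 leukocyte markers summed to 0.771 to 1.05 CPM with Azeliragon and 1.15 to 1.55 CPM in DMSO, with CD3E at 0 reads. Nearly all of this came from CD14, at 0.747 to 1.05 CPM with Azeliragon and 1.15 to 1.48 CPM in DMSO. The 3 endothelial markers summed to 0.604 to 0.843 CPM with Azeliragon and 0.324 to 0.649 CPM in DMSO. The 3 fibroblast markers summed to 0.535 to 1.08 CPM with Azeliragon and 0.598 to 0.718 CPM in DMSO, with PDGFRA at 0 reads and nearly all of the sum from LUM. The part of these markers in the results was not tested.

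Antioxidant response elements are the sequences through which NRF2 acts, so the stretches of member promoters that hold one are shown first. The core TGACNNNGC was searched on both strands of RefSeq promoter windows (GRCh38.p14, 250 bases before to 50 bases after a gene's start). A window was found for 28 of the 37 members, 36 windows in all. The core stood in 6 of these 36 windows (16.7%) and in 4685 of all 35093 windows of the same length (13.4%). The members concerned were GCLM, TXNRD1, KEAP1, PGD and GPX2, and the stretches of the first 4 follow, with 20 bases on either side and the core, or its reverse complement, in capitals.
GCLM, chr1:93909436-93909484, minus strand: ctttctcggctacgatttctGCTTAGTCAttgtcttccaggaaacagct
TXNRD1, chr12:104215660-104215799, plus strand: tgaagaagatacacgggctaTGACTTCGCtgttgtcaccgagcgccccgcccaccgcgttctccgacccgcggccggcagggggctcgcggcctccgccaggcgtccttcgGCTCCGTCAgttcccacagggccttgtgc
TXNRD1, chr12:104286910-104286958, plus strand: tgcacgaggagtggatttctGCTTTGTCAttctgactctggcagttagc
KEAP1, chr19:10502774-10502845, minus strand: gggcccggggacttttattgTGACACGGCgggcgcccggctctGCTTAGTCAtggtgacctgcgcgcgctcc
PGD, chr1:10398843-10398891, plus strand: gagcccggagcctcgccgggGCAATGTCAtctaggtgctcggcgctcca
Neither GCLM, TXNRD1, KEAP1 nor PGD passed the test described below with all 6 libraries (TXNRD1 and KEAP1 did without DMSO a). The windows of NQO1, AKR1B1, AKR1C3 and FTL, which did, hold no match to these letters. HMOX1, the other called member, was not among the members with a match. The 9 members without a window were not searched, and whether HMOX1 is among them is not stated here. Elements more than 250 bases before a start were not searched, so the called members may have elements outside the windows. The member share of 16.7% was also near the 13.4% of all windows. KEAP1 itself holds 2 matches, 1 on each strand. The AP-1 motif TGANTCA, which can overlap the core, stood in 7.71% of all windows and in 1 of the 36 member windows, that of OSGIN1. A match is a description of the letters and not a measured binding site.

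Most members of the antioxidant system were not called, and 4 of the 5 that were had lower levels with Azeliragon. AKR1C3, AKR1B1, NQO1 and HMOX1, enzymes that act on carbonyls, quinones and heme, fell with Azeliragon, and FTL, the light chain of the iron store ferritin, rose. AKR1C3 and NQO1 were called in all 16 other settings, while AKR1B1, HMOX1 and FTL lost their calls in some, including on leaving out any Azeliragon library. Of the 35 members with enough reads for the test, 1 was called higher (2.86%) and 4 lower (11.4%), at an adjusted p under 0.05 by edgeR's quasi-likelihood test. Among all 16081 genes tested, 2.75% were called higher and 3.53% lower, 6.27% in all. The other 30 members were not called, with log2 fold changes between -0.37 and 0.24, and 12 of the 35 had an unadjusted p under 0.05. The share of all genes under that unadjusted p was not counted, so the 12 cannot be read as an excess. The median log2 fold change was -0.09 over the members and -0.004 over all genes, with 12 members above 0 and 23 below. In bulk RNA, fewer cells expressing a gene and less RNA per cell cannot be told apart.

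The Azeliragon and DMSO libraries did not overlap for 4 members on the higher side and 10 on the lower side, where 12.1% and 13.2% of all genes did the same. Without DMSO a, 6 members were called higher and 14 lower of 36 tested, beside 12.9% and 10.8% of all genes. The 5 members called with all 6 libraries were called there too, and 15 that the main test did not call were called there. None of those 15 was called on leaving out DMSO b or DMSO c instead. As a share of all reads the members took 0.899 ± 0.019% with Azeliragon and 0.894 ± 0.054% in DMSO (SD, n = 3 each).

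**Figure D1:**
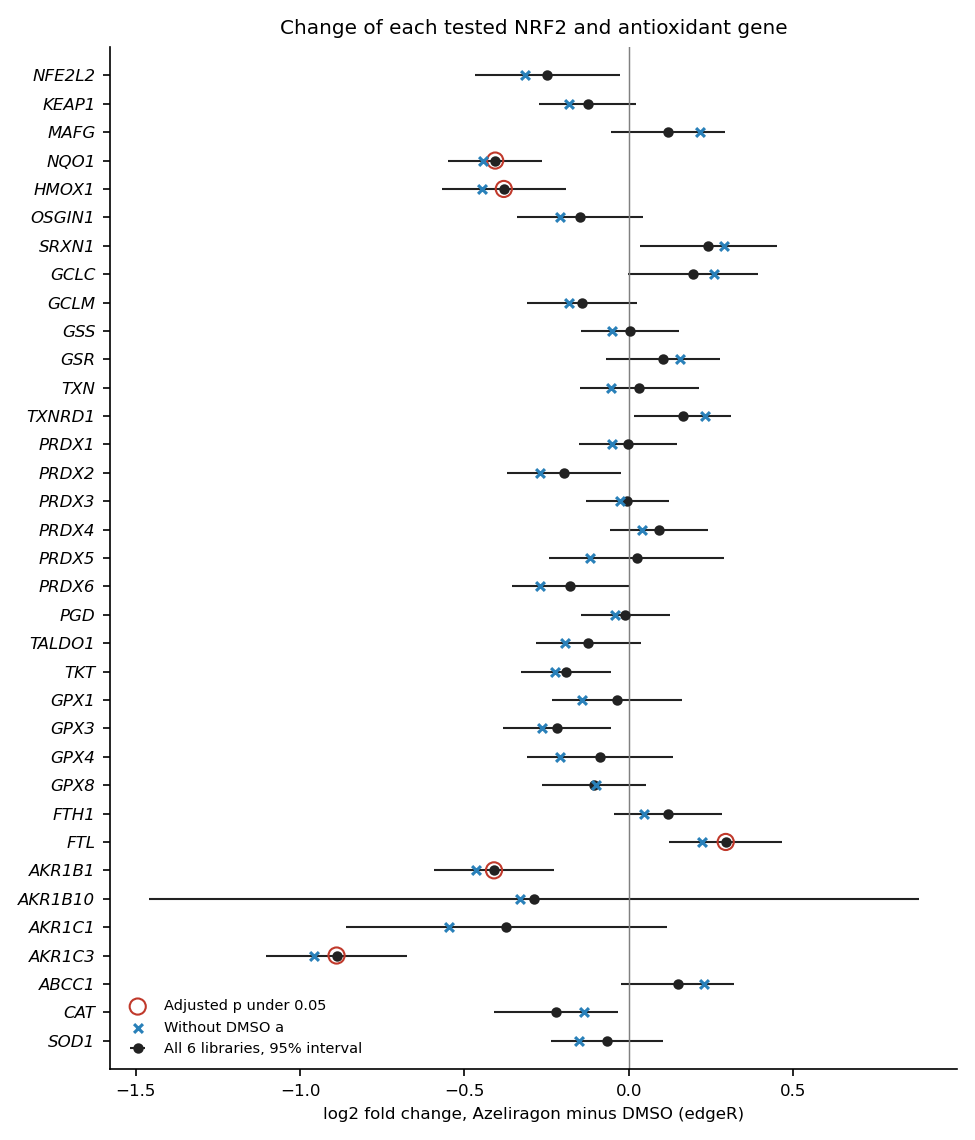
log2 fold change (Azeliragon minus DMSO, edgeR) of the 35 tested members in order of role, with 95% intervals from all 6 libraries (black), the value without DMSO a (blue crosses) and red circles on those with an adjusted p under 0.05. AKR1C3 lies farthest below 0 at -0.89, FTL is the called member above 0 at 0.30, and most other points lie within 0.25 of 0.

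NFE2L2 and its partners were not called with all 6 libraries. NFE2L2, on chromosome 2 at 177227595 to 177392697 (GRCh38, GENCODE 29), was at 28.2, 29.7 and 28.1 CPM with Azeliragon and at 30.8, 39.8 and 31.6 CPM in DMSO. These values, like all CPM here, are scaled by the TMM method. The Azeliragon libraries all lay below the DMSO libraries, of which DMSO b was the highest. The log2 fold change was -0.25 (SE 0.10; edgeR adjusted p = 0.189), without DMSO a it was -0.32 (edgeR adjusted p = 0.0109), and without DMSO b -0.12 (edgeR adjusted p = 0.603). A same-strand transcript, AC019080.1, covers 17.6% of the exon length of NFE2L2 and had 340 reads over all libraries, against 8155 for NFE2L2.

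KEAP1, the adaptor that targets NRF2 for degradation, had 161.6, 166.9 and 155.1 CPM with Azeliragon against 162, 181.3 and 184.3 CPM in DMSO. DMSO a fell among the Azeliragon libraries and the other DMSO libraries lay above them. Its log2 fold change was -0.13 (edgeR adjusted p = 0.334; 0.0105 without DMSO a). MAFG, the small MAF partner, averaged 105 ± 1.3 CPM with Azeliragon and 96.5 ± 11 CPM in DMSO (SD, n = 3 each; log2 fold change 0.12, edgeR adjusted p = 0.445). DMSO a was above all Azeliragon libraries for MAFG, and without it the log2 fold change was 0.22 (edgeR adjusted p = 0.00416). Without DMSO b or DMSO c it was 0.06 or 0.08 (edgeR adjusted p = 0.812 and 0.693).

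Of the genes classed as inducible target enzymes, NQO1 and HMOX1 fell and OSGIN1 and SRXN1 were not called. NQO1, which reduces quinones by transferring a pair of electrons and is widely used as a readout of NRF2 activity, lies on chromosome 16 (minus strand) at 69706996 to 69726951. Its levels were 294.3, 292.7 and 289.1 CPM with Azeliragon and 367, 374.1 and 420.2 CPM in DMSO. The Azeliragon libraries lay close together and below every DMSO library. NQO1 was 1.33-fold lower (log2 fold change -0.41, SE 0.066; edgeR adjusted p = 0.00309), and it was called in all 16 other settings tried. Without DMSO a the log2 fold change was -0.44 (edgeR adjusted p = 4.92e-07). An annotated antisense transcript covers 17.7% of its exon length and had 0 reads.

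HMOX1, the stress-inducible heme oxygenase that breaks heme into biliverdin, iron and carbon monoxide, is on chromosome 22 at 35380361 to 35394214. It had 37.3, 39.3 and 39.1 CPM with Azeliragon and 45.4, 48.9 and 56.4 CPM in DMSO. The groups did not overlap and DMSO c was highest. HMOX1 was 1.30-fold lower (log2 fold change -0.38, SE 0.087; edgeR adjusted p = 0.0218), and -0.45 on the log2 scale without DMSO a (edgeR adjusted p = 6.75e-05). The call was lost on leaving out any Azeliragon library, DMSO b or DMSO c, with an edgeR adjusted p of up to 0.140.

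SRXN1, sulfiredoxin, which repairs over-oxidised peroxiredoxins, had 18.99, 16.25 and 17.98 CPM with Azeliragon and 15.9, 14.1 and 14.9 CPM in DMSO. All Azeliragon libraries were above all DMSO libraries, the opposite order to that of NQO1 and HMOX1. AL121758.1, a protein-coding gene on the same strand, covers 84.95% of the SRXN1 exon length. It had 4 reads over all libraries, against 4246 for SRXN1, and reads in the shared part may not have been counted, so the SRXN1 count is uncertain. The SRXN1 log2 fold change of 0.24 did not pass (SE 0.095; edgeR adjusted p = 0.172), and without DMSO a it was 0.29 (edgeR adjusted p = 0.0350). OSGIN1, an oxidative stress-induced growth inhibitor, had 19.9 ± 0.13 CPM with Azeliragon and 22.1 ± 1.9 CPM in DMSO (log2 fold change -0.15, edgeR adjusted p = 0.379).

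**Figure D2:**
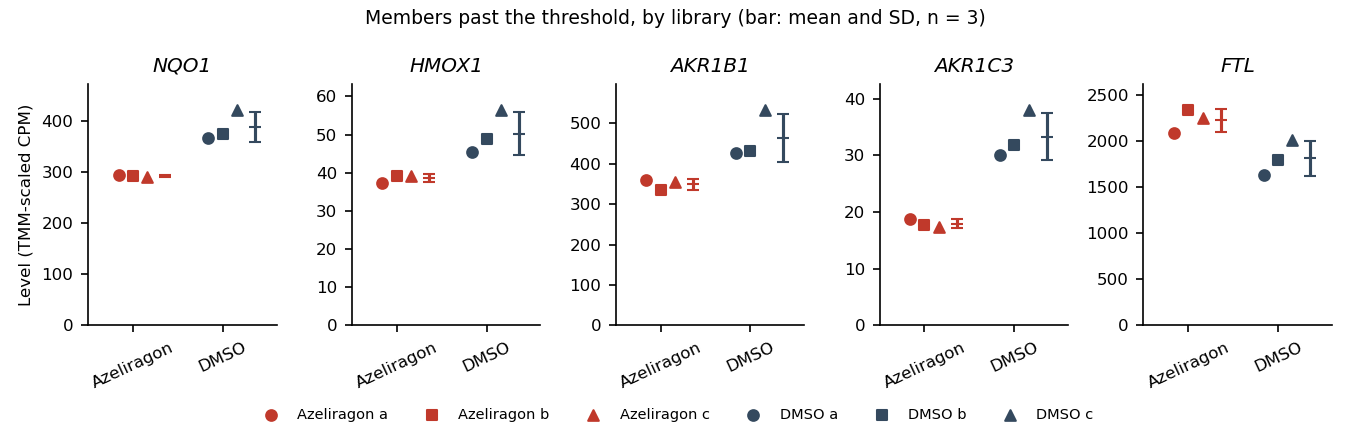
TMM-scaled CPM of the 5 called members in each library, Azeliragon (red) left of DMSO (blue), with the mean and SD of 3 libraries beside the points; each panel has its own axis from 0. The groups do not overlap in any panel, and FTL is the member that is higher with Azeliragon.

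None of the 4 genes of glutathione synthesis and reduction was called by edgeR, DESeq2 or limma-voom, and none had an unadjusted p under 0.05. The catalytic and modifier subunits of glutamate-cysteine ligase, the enzyme that limits glutathione synthesis, had log2 fold changes of opposite sign. GCLC, the catalytic subunit, had 22.9, 21.9 and 21.1 CPM with Azeliragon and 20.9, 17.6 and 19.1 CPM in DMSO. The lowest Azeliragon value lay just above the highest DMSO value, from DMSO a. Its log2 fold change was 0.19 (edgeR adjusted p = 0.254; 0.0382 without DMSO a). GCLM, the modifier subunit, whose promoter stretch is shown above, had 39.6, 44.7 and 42.9 CPM with Azeliragon and 44.2, 48.6 and 47.5 CPM in DMSO. DMSO a lay within the Azeliragon values, and the log2 fold change was -0.14 (edgeR adjusted p = 0.332). GSS, glutathione synthetase, had a log2 fold change of 0.00 with a 95% interval of -0.15 to 0.15. GSR, which reduces oxidised glutathione, averaged 34.9 ± 1.5 CPM with Azeliragon and 32.5 ± 2.1 CPM in DMSO (log2 fold change 0.10, edgeR adjusted p = 0.511).

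In the thioredoxin system, TXN, the protein that carries reducing electrons, had 348.5, 385.9 and 374.6 CPM with Azeliragon and 316.1, 368.8 and 399.4 CPM in DMSO. The groups overlapped fully and the log2 fold change was 0.03 (95% interval -0.15 to 0.21). TXNRD1, the selenoprotein that reduces thioredoxin, had 468.6, 456.1 and 461.8 CPM with Azeliragon and 450.6, 387.4 and 399.2 CPM in DMSO. Every Azeliragon library was above every DMSO library, with DMSO a nearest to them. The log2 fold change was 0.16 (SE 0.068; edgeR adjusted p = 0.193), and 0.23 without DMSO a (edgeR adjusted p = 0.000493). Neither gene was called by DESeq2 or limma-voom, and TXNRD1 was the one with an unadjusted p under 0.05.

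None of the 6 peroxiredoxins, enzymes that break down peroxides with a reactive cysteine, was called by edgeR, DESeq2 or limma-voom, and 1, PRDX2, had an unadjusted p under 0.05. PRDX1 averaged 382 ± 15 CPM with Azeliragon and 383 ± 28 CPM in DMSO. The mitochondrial PRDX3 had the narrowest interval of the family, -0.13 to 0.12 around a log2 fold change of -0.00. The cytosolic PRDX2 had 162.3, 180.1 and 172.6 CPM with Azeliragon and 175.9, 197.5 and 216.7 CPM in DMSO. Its groups overlapped through DMSO a (log2 fold change -0.20, edgeR adjusted p = 0.187). The PRDX2 value was -0.27 without DMSO a (edgeR adjusted p = 0.000689) and -0.12 without DMSO c (edgeR adjusted p = 0.441). PRDX6, which also repairs oxidised membrane lipids, had 298.9, 294.5 and 293.8 CPM with Azeliragon and 289.8, 343.8 and 370.2 CPM in DMSO. Here DMSO a was the lowest of all 6 libraries (log2 fold change -0.18, edgeR adjusted p = 0.246). The PRDX6 value was -0.27 without DMSO a (edgeR adjusted p = 0.000148) and -0.10 without DMSO c (edgeR adjusted p = 0.553). PRDX4, of the endoplasmic reticulum, had a log2 fold change of 0.09 (edgeR adjusted p = 0.498). PRDX5 ranged from 155.8 to 176.3 CPM with Azeliragon and from 127.6 to 195.3 CPM in DMSO, where DMSO a was again the lowest (log2 fold change 0.02, edgeR adjusted p = 0.942).

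The 3 pentose phosphate enzymes, which supply NADPH or recycle its sugar precursors, were likewise not called by edgeR, DESeq2 or limma-voom, with 1 at an unadjusted p under 0.05. That gene was TKT, transketolase, with 736.3, 797.1 and 785 CPM under Azeliragon and 843.4, 873.6 and 931.2 CPM in DMSO. Its groups did not overlap, and the log2 fold change was -0.19 (SE 0.063; edgeR adjusted p = 0.103, or 0.00111 without DMSO a). TALDO1, transaldolase, averaged 271 ± 4.2 CPM with Azeliragon and 295 ± 29 CPM in DMSO (log2 fold change -0.12, edgeR adjusted p = 0.385). The TALDO1 value was -0.19 without DMSO a (edgeR adjusted p = 0.00578) and -0.05 without DMSO c (edgeR adjusted p = 0.771). PGD, an NADPH-producing dehydrogenase, averaged 195 ± 5.0 CPM with Azeliragon and 196 ± 9.8 CPM in DMSO (log2 fold change -0.01, 95% interval -0.15 to 0.12).

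The glutathione peroxidases are a family named for the use of glutathione to reduce peroxides. Of these 5 members, 4 were tested and none was called by edgeR, DESeq2 or limma-voom, with 1 (GPX3) at an unadjusted p under 0.05. GPX1 averaged 713 ± 16 CPM with Azeliragon and 730 ± 107 CPM in DMSO (log2 fold change -0.03, edgeR adjusted p = 0.878). The GPX1 value was -0.14 without DMSO a (edgeR adjusted p = 0.0396), but 0.07 without DMSO c (edgeR adjusted p = 0.716). GPX4, which reduces lipid peroxides in membranes and is known as a brake on ferroptosis, had 307.5, 303.8 and 286.5 CPM with Azeliragon and 261.7, 321.7 and 370.9 CPM in DMSO. The DMSO libraries spread on both sides of the Azeliragon libraries, DMSO a lowest (log2 fold change -0.09, edgeR adjusted p = 0.681). The GPX4 value was -0.21 without DMSO a (edgeR adjusted p = 0.00644), but 0.04 without DMSO c (edgeR adjusted p = 0.874). The secreted GPX3 had 87.3, 89.8 and 93.8 CPM with Azeliragon and 98.4, 100.5 and 116.3 CPM in DMSO, with no overlap (log2 fold change -0.22, edgeR adjusted p = 0.122). The GPX3 value was -0.26 without DMSO a (edgeR adjusted p = 0.00248) and -0.14 without DMSO c (edgeR adjusted p = 0.309). GPX8 also had no overlap, at 39.6 ± 1.9 CPM with Azeliragon and 42.6 ± 1.0 CPM in DMSO (log2 fold change -0.11, edgeR adjusted p = 0.451). GPX2, the gastrointestinal form, had 16, 10 and 6 reads with Azeliragon and 7, 16 and 1 in DMSO, too few for the test.

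Ferritin is the cell's iron store, built from a light chain, FTL, and a heavy chain, FTH1, that oxidises iron. FTL, on chromosome 19 at 48965301 to 48966878, was the member with the highest level per length, at 2530 CPM per kilobase of exon with Azeliragon and 2062 in DMSO. It had 2082, 2331 and 2251 CPM with Azeliragon and 1627, 1797 and 2007 CPM in DMSO. All Azeliragon libraries were above all DMSO libraries, though Azeliragon a and DMSO c were close. FTL was 1.23-fold higher (log2 fold change 0.30, SE 0.079; edgeR adjusted p = 0.0474), and 0.22 on the log2 scale without DMSO a (edgeR adjusted p = 0.00231). The call was lost under RLE scaling, under a stricter filter, and on leaving out any Azeliragon library or DMSO b, with an edgeR adjusted p of up to 0.221.

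FTH1 had 647.9, 697.6 and 682.6 CPM with Azeliragon and 556.4, 628 and 681.1 CPM in DMSO. DMSO c lay within the Azeliragon values and the log2 fold change was 0.12 (edgeR adjusted p = 0.409). FTH1 was called higher where trends on GC content and transcript length were removed. BEST1, on the opposite strand, covers 62.4% of the FTH1 exon length and had 40 reads over all libraries, against 168304 for FTH1. The strand setting is not given, so the FTH1 count may lack reads from the shared part. The ratio of FTL to FTH1 reads, which depends on neither the library total nor the scaling, was 3.21, 3.34 and 3.30 with Azeliragon and 2.92, 2.86 and 2.95 in DMSO. Every Azeliragon library had the higher ratio, and the means were 3.28 ± 0.065 with Azeliragon and 2.91 ± 0.044 in DMSO (SD, n = 3 each; exact permutation test, two-sided p = 0.1, the smallest that 3 against 3 libraries allow). Ferritin pseudogenes are numerous: 18.3% of 50-base windows of the FTL transcript and 40.4% of those of FTH1 occur in a related transcript. With 150-base windows the shares were 0% for FTL and 0.741% for FTH1. Adding the reads of the numbered pseudogenes, 0.0379% of the FTL sum and 0.168% of the FTH1 sum, left the log2 fold changes at 0.30 and 0.12 (edgeR adjusted p = 0.0473 and 0.409).

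The aldo-keto reductases reduce aldehydes, ketones and steroids with NADPH, and 2 of the 4 tested fell. AKR1B1, aldose reductase, which turns glucose into sorbitol, is on chromosome 7 at 134442350 to 134459284. It had 359.9, 334.4 and 354.2 CPM with Azeliragon and 427.5, 433.1 and 532.6 CPM in DMSO. The groups did not overlap and DMSO c stood above the rest. AKR1B1 was 1.33-fold lower (log2 fold change -0.41, SE 0.084; edgeR adjusted p = 0.0118), and -0.47 on the log2 scale without DMSO a (edgeR adjusted p = 3.55e-06). Leaving out any Azeliragon library ended the call, with an edgeR adjusted p of up to 0.0867.

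AKR1C3, which reduces steroids and prostaglandins and makes active androgens, had the largest log2 fold change of the 35 tested members. The gene is on chromosome 10 (plus strand) at 5035354 to 5107686. It had 809, 772 and 723 reads with Azeliragon and 1359, 1376 and 1639 in DMSO, or 18.8, 17.7 and 17.4 CPM with Azeliragon against 30.1, 31.9 and 38.0 CPM in DMSO. Each DMSO library was well above every Azeliragon library, and DMSO a sided with the other DMSO libraries. AKR1C3 was 1.85-fold lower (log2 fold change -0.89, SE 0.099, 95% interval -1.10 to -0.67; edgeR adjusted p = 0.000211). The call held in all 16 other settings, with an edgeR adjusted p of at most 0.00386 when 1 library was left out and a log2 fold change of -0.96 without DMSO a.

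The other AKR1C genes were weakly expressed. AKR1C1, a hydroxysteroid dehydrogenase, had 116, 107 and 75 reads with Azeliragon and 101, 158 and 135 in DMSO. Its groups overlapped, and the log2 fold change was -0.37 (SE 0.22; edgeR adjusted p = 0.387). AKR1C2 had 8, 5 and 5 reads with Azeliragon and 15, 14 and 9 in DMSO, too few for the test, and AKR1C4, which is no member, had 0 reads. AKR1C3 accounted for 86.7%, 87.3% and 90.0% of the AKR1C reads with Azeliragon and 92.1%, 88.9% and 91.9% in DMSO. AKR1B10, another carbonyl reductase, had 14, 4 and 9 reads with Azeliragon and 11, 12 and 11 in DMSO (log2 fold change -0.29, SE 0.54; edgeR adjusted p = 0.814).

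The AKR1C genes are close copies that can share reads. Of all 150-base windows of the AKR1C1 and AKR1C2 transcripts, 11.3% and 21.2% occur in a related transcript, while 1.33% of those of AKR1C3 do. With 50-base windows the shares were 28.7% for AKR1C1, 52.2% for AKR1C2 and 12.1% for AKR1C3. With the reads of AKR1C1 to AKR1C4 summed, there were 933, 884 and 803 reads with Azeliragon and 1475, 1548 and 1783 in DMSO. The sum was 1.79-fold lower (log2 fold change -0.84, SE 0.098; edgeR adjusted p = 0.000317). The likeness extends to the promoter windows, shown here from RefSeq (GRCh38.p14). Of their 300 bases, 250 lie before the start, so they do not measure the sharing of reads. Whether differences between the windows bear on expression was not tested. Capitals mark bases of AKR1C2 and AKR1C3 with no identical partner in an alignment to the AKR1C1 window.
AKR1C1, chr10:4963165-4963464, plus strand: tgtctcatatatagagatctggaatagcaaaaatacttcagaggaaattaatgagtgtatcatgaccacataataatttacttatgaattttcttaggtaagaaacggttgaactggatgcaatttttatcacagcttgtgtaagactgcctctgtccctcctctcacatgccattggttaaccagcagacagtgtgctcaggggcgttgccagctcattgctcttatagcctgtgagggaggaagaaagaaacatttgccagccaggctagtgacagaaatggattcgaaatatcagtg
AKR1C2, chr10:5003808-5004107, minus strand: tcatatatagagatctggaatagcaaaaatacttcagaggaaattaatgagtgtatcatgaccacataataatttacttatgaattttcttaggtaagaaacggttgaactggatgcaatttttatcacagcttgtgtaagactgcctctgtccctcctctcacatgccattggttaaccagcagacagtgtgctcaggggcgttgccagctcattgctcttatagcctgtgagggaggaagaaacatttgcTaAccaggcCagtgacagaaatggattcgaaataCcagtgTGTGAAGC
AKR1C3, chr10:5094164-5094463, plus strand: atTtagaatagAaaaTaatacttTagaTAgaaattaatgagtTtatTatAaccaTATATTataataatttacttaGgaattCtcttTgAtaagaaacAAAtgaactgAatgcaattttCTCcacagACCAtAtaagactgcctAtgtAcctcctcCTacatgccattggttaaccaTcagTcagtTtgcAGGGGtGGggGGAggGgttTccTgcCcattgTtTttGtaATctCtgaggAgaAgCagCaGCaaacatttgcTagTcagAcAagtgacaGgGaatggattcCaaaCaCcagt
The AKR1C2 window was identical to that of AKR1C1 at 288 of 300 bases (96%), with part of the difference at its end, past the AKR1C1 window. The AKR1C3 window shown was identical at 227 bases (75.7%), and a second AKR1C3 window at chr10:5048531-5048830 at 232 bases (77.3%). None of these windows holds the core TGACNNNGC.

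**Figure D3:**
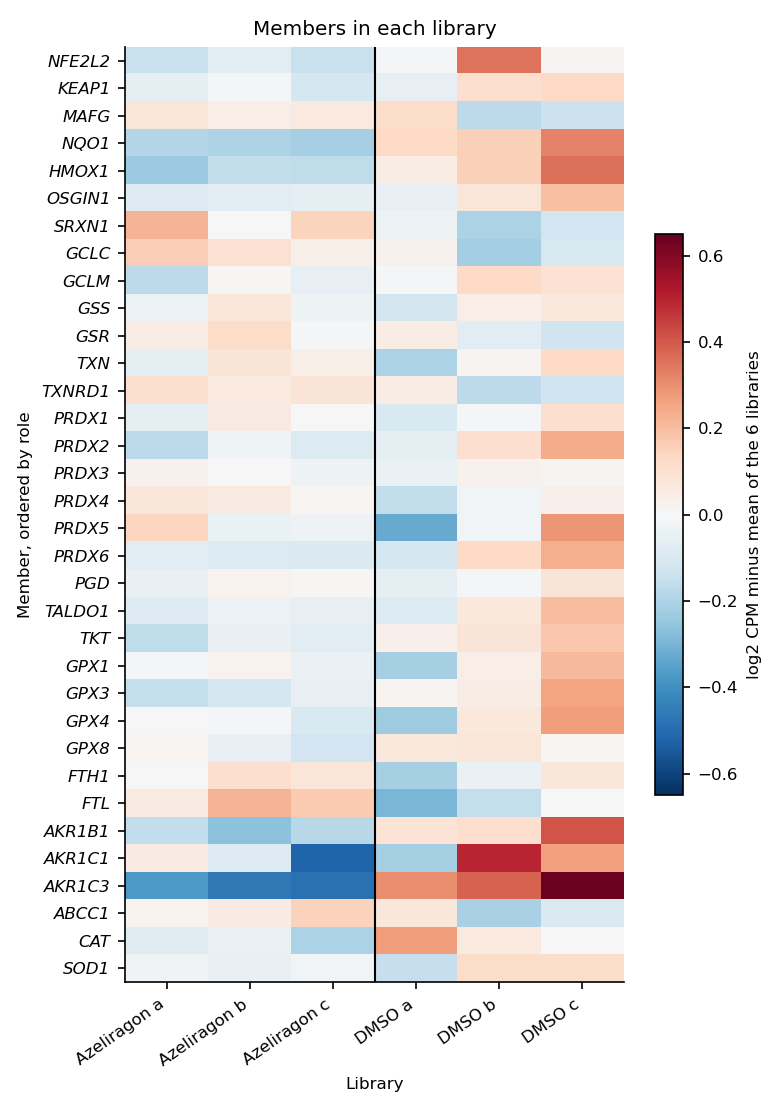
log2 CPM of 34 members in each of the 6 libraries, Azeliragon left of DMSO, as the difference from that gene's mean over the libraries (red above it, blue below it); AKR1B10, at under 1 CPM, and the untested GPX2 and AKR1C2 are left out. AKR1C3, AKR1B1, NQO1 and HMOX1 are blue in all Azeliragon libraries, and DMSO a is paler than DMSO b and c in many rows.

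ABCC1, a pump that exports glutathione conjugates, had 98.9, 100.9 and 108 CPM with Azeliragon and 102.5, 84.0 and 91.1 CPM in DMSO. DMSO a lay among the Azeliragon libraries (log2 fold change 0.15, edgeR adjusted p = 0.322). The ABCC1 value was 0.23 without DMSO a (edgeR adjusted p = 0.00547) and 0.08 without DMSO b (edgeR adjusted p = 0.730). CAT, catalase, which breaks down hydrogen peroxide in peroxisomes, had 43.9, 44.9 and 40.1 CPM with Azeliragon and 55.8, 48.3 and 46.2 CPM in DMSO. The groups did not overlap, but DMSO a was highest and the log2 fold change of -0.22 (edgeR adjusted p = 0.170) became -0.14 without it (edgeR adjusted p = 0.181). SOD1, the cytosolic superoxide dismutase, averaged 98.2 ± 1.1 CPM with Azeliragon and 103 ± 11 CPM in DMSO (log2 fold change -0.07, edgeR adjusted p = 0.689). The SOD1 value was -0.15 without DMSO a (edgeR adjusted p = 0.0394) and -0.02 without DMSO b or DMSO c (edgeR adjusted p = 0.945 and 0.932).

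DMSO a departed from DMSO b and c in a way that went with transcript length. Of the 35 tested members, 27 were lower in DMSO a than in the mean of DMSO b and c, and 8 were higher. The median longest transcript was 1757 bases among those that were lower and 3618 bases among those that were higher. AKR1C1, a long transcript of 6705 bases, was the lowest (-0.59 on the log2 scale), followed by PRDX5 (-0.46), GPX4 (-0.40) and GPX1 (-0.34). MAFG (0.28), CAT (0.24) and ABCC1 (0.23) were the highest. Across the 35 members, the correlation of log2 length with this deviation was 0.48, and with the log2 fold change of the treatment -0.05. Over the 12613 genes with a mean of at least 50 reads, length correlated with the treatment log2 fold change at 0.17, and at 0.28 without DMSO a, so leaving that library out did not remove the relation. These describe genes that share the same libraries. Of the 15 members called without DMSO a and not in the main test, 7 were also called in the same direction when trends on transcript length and GC content were removed from the libraries as well: NFE2L2, MAFG, SRXN1, TXNRD1, PRDX2, PRDX6 and TKT. TKT was also called lower with all 6 libraries under trend removal with a replicate block (log2 fold change -0.24, edgeR adjusted p = 0.0135). KEAP1, GCLC, TALDO1, GPX1, GPX3, GPX4, ABCC1 and SOD1 were not called with trends removed and DMSO a left out. In that setting GPX1 had a log2 fold change of 0.04, against -0.14 with DMSO a left out alone. GCLM, PRDX4, FTH1 and AKR1C1 were called with the trend removed and DMSO a left out, but not with DMSO a left out alone.

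**Figure D4:**
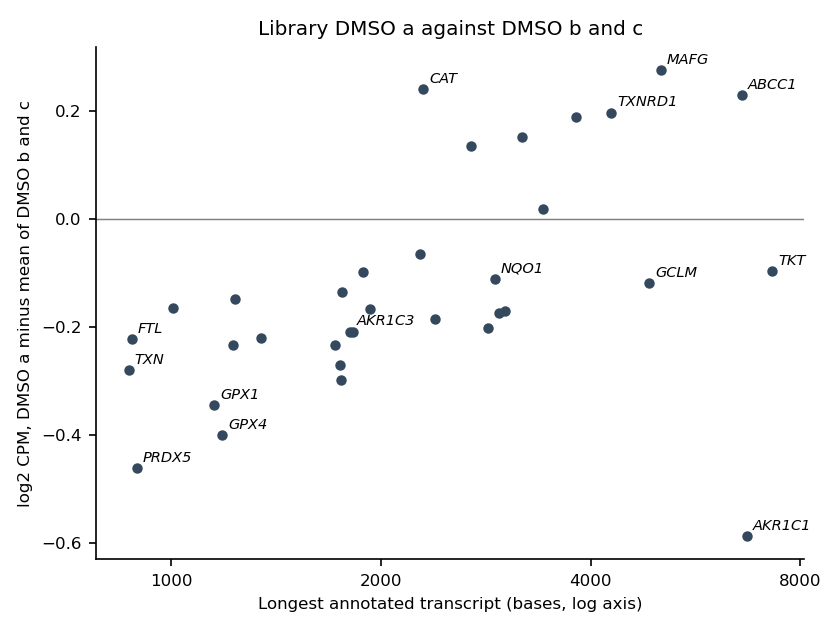
For 34 tested members (AKR1B10, at under 1 CPM, is left out), the log2 CPM of DMSO a minus the mean of DMSO b and c against the length of the longest annotated transcript (log axis). Short transcripts such as PRDX5 (-0.46) lie below 0 and longer ones such as MAFG (0.28) tend to lie above it, with AKR1C1 (-0.59) and TKT (-0.10) as long transcripts below 0.

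Beyond the members, 118 related genes were listed, of which 104 were tested. Of these, 4 were called higher (3.85%) and 12 lower (11.5%), beside the 2.75% and 3.53% of all genes. Without DMSO a, 16 were called higher and 25 lower, beside 12.9% and 10.8% of all genes. Their median log2 fold change was -0.03. Among the 13 tested regulators of the pathway, 1 was called higher and 1 lower. The higher count was 3 by DESeq2, 4 with trends on length and GC content removed, 5 without DMSO a, 2 without DMSO c, and 0 without Azeliragon a, Azeliragon c or DMSO b, and 2 were called lower without DMSO a. NFE2L3, a relative of NRF2, fell, with 133.2, 140.2 and 134.7 CPM with Azeliragon and 180.2, 180.9 and 179.3 CPM in DMSO. Its DMSO libraries were nearly equal, DMSO a included (log2 fold change -0.41, SE 0.058; edgeR adjusted p = 0.00143). MAFK, another small MAF, rose to 70.0 ± 4.2 CPM with Azeliragon, against 53.3 ± 2.0 CPM in DMSO (SD, n = 3 each; log2 fold change 0.39, edgeR adjusted p = 0.00608). The MAFK call was lost without Azeliragon a, Azeliragon c or DMSO b (edgeR adjusted p of up to 0.0553), and TMEM184A overlaps it on the opposite strand. NFE2L1, the most abundant relative of NRF2, had a log2 fold change of -0.01 (95% interval -0.15 to 0.13), and MAFF one of 0.23 (edgeR adjusted p = 0.0743).

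Of 20 further NRF2 targets, 1 was called higher and 5 lower (2 and 10 without DMSO a), with a median log2 fold change of -0.12. Among all genes, 2.75% were called higher and 3.53% lower (12.9% and 10.8% without DMSO a). ABCC3, a conjugate exporter, had 51.1, 48.7 and 55.4 CPM with Azeliragon and 115.1, 96.43 and 91.75 CPM in DMSO. It was 1.95-fold lower with no overlap (log2 fold change -0.97, SE 0.091; edgeR adjusted p = 7.09e-05; -0.86 without DMSO a). EPHX1, an epoxide hydrolase, fell to 84.3 ± 3.0 CPM with Azeliragon, against 116 ± 10 CPM in DMSO (log2 fold change -0.46, edgeR adjusted p = 0.00294). TRIM16 and TRIM16L, which share 32.2% and 44.8% of their 50-base windows so that their reads cannot be fully separated, fell by 0.54 and 0.66 on the log2 scale (edgeR adjusted p = 0.00181 and 0.000110). ALDH3A1, an aldehyde dehydrogenase with 145 reads in all, was at 0.24 ± 0.052 CPM with Azeliragon and 0.87 ± 0.14 CPM in DMSO (log2 fold change -1.83, edgeR adjusted p = 0.0142). Its call was lost without any Azeliragon library, DMSO b or DMSO c (edgeR adjusted p of up to 0.0868).

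SQSTM1, the autophagy receptor p62 that can bind KEAP1, was the target that rose. It had 503.6, 540.5 and 541.7 CPM with Azeliragon and 378.6, 341.9 and 331.5 CPM in DMSO, with no overlap. SQSTM1 was 1.51-fold higher (log2 fold change 0.59, SE 0.068; edgeR adjusted p = 0.000264; 0.65 without DMSO a). MRNIP on the opposite strand overlaps 20.7% of its exon length and had 5600 reads, against 113907 for SQSTM1. MGST1, a membrane-bound glutathione transferase, had a log2 fold change of -0.04 (edgeR adjusted p = 0.826).

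Of 21 genes of glutathione use and turnover, 3 were called lower and 0 higher by edgeR, with 3 at an unadjusted p under 0.05 on the higher side, 2 called higher by DESeq2 and 0 by limma-voom. Without DMSO a, 2 were called higher and 5 lower, and 2 were called lower on leaving out any other 1 library. The shares of all genes were 2.75% higher and 3.53% lower, and 12.9% and 10.8% without DMSO a. CHAC1, which degrades glutathione, fell to 12.5 ± 0.90 CPM with Azeliragon, against 18.8 ± 1.9 CPM in DMSO (log2 fold change -0.59, edgeR adjusted p = 0.00475). GGT1, which starts the breakdown of extracellular glutathione, fell to 1.32 ± 0.44 CPM with Azeliragon, against 3.94 ± 0.70 CPM in DMSO (log2 fold change -1.58, edgeR adjusted p = 0.00290). GGT1 overlaps the far more abundant SNRPD3 on the same strand, so its count is uncertain. GSTZ1 fell by 0.34 on the log2 scale (edgeR adjusted p = 0.0226), a call lost without any Azeliragon library, DMSO b or DMSO c (up to 0.144). The abundant GSTP1 had 381 ± 18 CPM with Azeliragon and 424 ± 46 CPM in DMSO (edgeR adjusted p = 0.313), and GLO1, a glyoxalase that clears methylglyoxal, had 259 ± 10.5 CPM with Azeliragon and 223.5 ± 8.1 CPM in DMSO (edgeR adjusted p = 0.0672).

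Iron and heme genes had 2 called higher and 1 lower of 11 tested, with 4 and 2 without DMSO a and 1 and 1 on leaving out any other 1 library. All genes had 2.75% called higher and 3.53% lower, and 12.9% and 10.8% without DMSO a. TFRC, the transferrin receptor that brings iron into the cell, had 276.2, 261 and 255.4 CPM with Azeliragon and 209.8, 166.2 and 156 CPM in DMSO. DMSO a was the nearest to the Azeliragon libraries but did not reach them. TFRC was 1.49-fold higher (log2 fold change 0.58, SE 0.097; edgeR adjusted p = 0.00391; 0.71 without DMSO a), and was called in all 16 other settings. SLC39A14, a metal importer, was 0.32 higher on the log2 scale (edgeR adjusted p = 0.0499), a call lost with library totals, with a stricter filter and without any library other than DMSO a (up to 0.248). STEAP3, which reduces iron in endosomes, fell to 88.4 ± 4.9 CPM with Azeliragon, against 116 ± 2.8 CPM in DMSO (log2 fold change -0.39, edgeR adjusted p = 0.00411). ACO1, which also acts as an iron sensor, and NCOA4, which delivers ferritin for degradation, had log2 fold changes of 0.15 and 0.12 (edgeR adjusted p = 0.170 and 0.459).

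**Figure D5:**
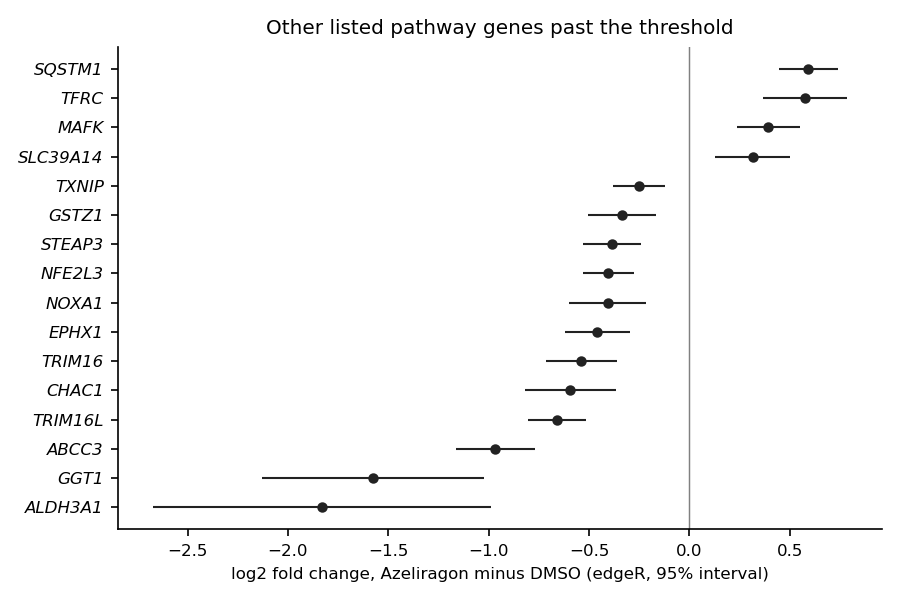
log2 fold change (Azeliragon minus DMSO, edgeR) with 95% intervals for the 16 of 104 tested related genes that passed the threshold. SQSTM1 (0.59) and TFRC (0.58) lie farthest above 0, and ALDH3A1 (-1.83) and GGT1 (-1.58), both at low counts with wide intervals, farthest below.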

How the data were processed

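Raw read counts for each gene were deposited by the authors, 1 column for each of the 6 libraries. The submitters' processing notes name the build GRCh38 and, with no role, featureCounts 1.5.0-p3, STAR 2.6.1d and limma. How strand and multi-mapping reads were treated, and with which annotation, is not given in the sources used here, so overlapping genes and close copies can share counts. Of 57167 names, 57156 were in GENCODE 29, used for coordinates, length and GC content. Names were shared by 1741 entries (SOD2 was read from the entry with more counts), and 2 entries with names turned into dates, 0% of counts, were left out.

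Genes passing filterByExpr were scaled by TMM and tested in R 4.3.3 with edgeR 4.0.16 (quasi-likelihood, treatment as the only term, Benjamini-Hochberg over 16081 genes, threshold 0.05). DESeq2 1.42.0, limma-voom 3.58.1 and other settings were alternatives, and the scripts were tested on simulated data. GPX2 and AKR1C2 did not pass the filter. Promoter windows came from RefSeq, were searched in Python 3.11.15 and aligned with Biopython 1.88. Exact permutation tests used SciPy 1.17.1 and plots matplotlib 3.10.9. Totals of 41455979 to 44313584 counts per library leave genes with a few reads imprecise, and intervals cover only the spread between these libraries.

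The members, lists, tests and settings were chosen with earlier results of these data known. All members were named. From each other list, up to 5 called genes by size of change and up to 2 abundant genes that were not called were named. EPHX1, a sixth called gene of its list, was named after its values were seen. A gene that this rule names is not reported here.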

Additional observations from a re-analysis of the deposited data

How the results depend on the processing

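AKR1C3, NQO1, NFE2L3, ABCC3, EPHX1, SQSTM1, TRIM16, TRIM16L, GGT1, CHAC1, TFRC and STEAP3 were called in all 16 other settings. Over single genes, 744 values stayed on their side of the threshold, 30 crossed it to a call and 43 lost one. No gene called in the main test turned direction. Among the 744, 34 values, of 10 genes not called in the main test, had the opposite sign to it, none of them called (smallest edgeR adjusted p 0.237). Among these genes, GPX1, GPX4 and SOD1 were called lower without DMSO a, and GPX1 and GPX4 were above 0 without DMSO c (0.07 and 0.04) and with trends removed (0.09 and 0.04). Members called higher numbered 1 in the main test, 0 under RLE scaling and under the stricter filter (a mean of 50 reads, and 1 CPM in 3 or more libraries), 2 with trends on GC content and transcript length removed, 6 with those removed and DMSO a left out, and 0 to 6 on leaving out 1 library. Members called lower numbered 4, with 10 under trend removal without DMSO a and 2 to 14 on leaving out 1 library, the most without DMSO a and the fewest without any 1 Azeliragon library. All genes called numbered 1009, against 1685 with no filter, 1877 with trend removal, 3765 with that and DMSO a left out, 1420 by DESeq2, and 445 to 3916 on leaving out 1 library. Related genes called numbered 16, against 25 with no filter, 27 and 36 under trend removal with and without DMSO a, and 10 to 41 on leaving out 1 library. The cause was not tested. No pairing of the libraries by the letters a, b and c was visible (correlation of deviations 0.027, 0.022 and -0.044). DMSO a weighs heavily in the DMSO deviations, so a weak pairing could go unseen. With a replicate block, 1 member was called higher and 4 lower, with 908 of all genes called; with the replicate block and trend removal, 2 members were higher and 5 lower, with 1801 of all genes. TXNIP alone among the named related genes lost its call under the block. Depth limited GPX2, AKR1C2, AKR1B10 and ALDH3A1, with few reads in any library.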

Other observations

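Further redox enzyme lists were also counted, beside 2.75% of all genes called higher and 3.53% called lower (12.9% and 10.8% without DMSO a). Among 14 further thioredoxin, superoxide and methionine sulfoxide enzymes, 1 was called lower and 0 higher by edgeR, with 0 at an unadjusted p under 0.05 on the higher side and 0 called higher by DESeq2 or limma-voom; without DMSO a, 3 were called lower. TXNIP, which binds and inhibits thioredoxin, had 141.4, 135.7 and 139.8 CPM with Azeliragon and 164.3, 169.7 and 162.6 CPM in DMSO, with no overlap (log2 fold change -0.25, edgeR adjusted p = 0.0245). That call was lost without any Azeliragon library or DMSO b (edgeR adjusted p of up to 0.162). The mitochondrial TXN2 and SOD2 had log2 fold changes of -0.07 and 0.14 (edgeR adjusted p = 0.636 and 0.305).

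Of 12 other NADPH and pentose phosphate enzymes, 0 were called by edgeR, with 1 at an unadjusted p under 0.05 in each direction, 1 called lower by DESeq2 and 0 by limma-voom; without DMSO a, 2 were called higher and 1 lower. The folate enzymes MTHFD1 and MTHFD2 were the most abundant, with log2 fold changes of 0.09 and -0.04. Of the 5 tested among 9 other aldo-keto reductases, 0 were called by edgeR, DESeq2 or limma-voom, and 0 had an unadjusted p under 0.05. AKR1A1, the general aldehyde reductase, averaged 75.4 ± 0.59 CPM with Azeliragon and 76.0 ± 4.5 CPM in DMSO (log2 fold change -0.01, 95% interval -0.16 to 0.13), and AKR7A2 had a log2 fold change of -0.06 (95% interval -0.21 to 0.09).

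Of the 8 tested among 15 NADPH oxidase genes and partners, which produce superoxide or hydrogen peroxide, 1 was called lower and 0 higher by edgeR, with 1 at an unadjusted p under 0.05 on the higher side, where DESeq2 and limma-voom called 1 each; without DMSO a, 1 was called higher and 2 lower. NOXA1, an activator subunit, had 22.32, 25.55 and 24.99 CPM with Azeliragon and 30.75, 30.93 and 35 CPM in DMSO, with no overlap (log2 fold change -0.41, edgeR adjusted p = 0.0166). Its call was lost without any Azeliragon library or DMSO b (edgeR adjusted p of up to 0.119). CYBA, the membrane subunit p22phox, averaged 242 ± 9.5 CPM with Azeliragon and 293 ± 52 CPM in DMSO (log2 fold change -0.27, edgeR adjusted p = 0.164).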
